A study of Mus musculus with 4 samples.

Results

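Peaks of N6-methyladenosine (m6A) enrichment that the authors' annotation places in the last exon of a spliced transcript are described here for mouse bone marrow-derived macrophages. A peak was a member when its annotation started with Exon and read exon k of n with k equal to n and n above 1, and peaks annotated to a 3′ UTR form a class of their own and are not members. The KO list held 1132 members of 21031 peaks and the WT list held 975 members of 16709 peaks, 2107 of 37740 peaks in all. A further deposited table of peaks that differ between the genotypes held 219 rows of this kind among 6050.

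The study compared the m6A maps of macrophages with and without the m6A writer Mettl3. KO cells came from C57BL/6 mice with floxed Mettl3 alleles and a Cre recombinase driven by the lysozyme 2 gene (LyzM-cre), which acts in myeloid cells. WT cells came from mice with the floxed alleles only. Bone marrow of either genotype was cultured for 7 days in M-CSF, a growth factor that turns its progenitors into macrophages. In m6A-seq, poly(A) RNA is fragmented, fragments bound by an anti-m6A antibody are sequenced as the IP library, and unselected fragments as the input library. With a single IP and a single input library per genotype (4 libraries), no difference between the genotypes has a replicate check and none was tested here. Intervals are at 95%. They cover counting error and treat every peak as independent, although peaks of 1 gene come from the same RNA. Read totals were not analysed here and the depth of the libraries is unknown.

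m6A is placed on RNA while it is being made, by a complex of Mettl3, Mettl14 and Wtap, at adenosines within a short consensus whose most common core is GGAC. Complexes left at splice junctions keep the writer away from short internal exons, so that the mark is found mainly in long internal exons and in last exons, often around the stop codon. In macrophages the mark is read by proteins that alter the stability and translation of transcripts, among them transcripts of innate immune signalling.

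The genotype could not be checked on the target gene. Mettl3 had a single KO peak, of 1.35-fold in the 3′ UTR with a false discovery rate (FDR) of 0.0759, no WT peak, and no row in the authors' deposited table, which therefore gives no input level for it. That table gives input levels in FPKM, which divides reads by transcript length and by library size, only for genes with a listed row. Each level belongs to the gene to which the authors assigned the row. A level was given in the authors' deposited table for 7 of 10 macrophage markers, 58.4 to 6615 FPKM in KO input and 40.6 to 10533 FPKM in WT input. Of 6 neutrophil markers 2 were listed in the authors' deposited table, S100a8 and S100a9, with a summed level of 137 FPKM in KO input and 233 FPKM in WT input. The single listed B cell marker, Cd79b, stood at 0.734 FPKM in KO input and 1.12 FPKM in WT input in the authors' deposited table, and no marker of dendritic, T and NK, erythroid, stromal or mast cells was listed. In these bulk samples fewer cells of a type and less RNA per cell cannot be told apart. Of all these markers only Spi1, the transcription factor PU.1, had a last-exon peak, in the KO list (390 exonic bases, 2.19-fold).

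No genome sequence was used, so the sequence shown is limited to start windows and microRNA hairpins of RefSeq (GRCm38.p6, the assembly of mm10) that lie wholly inside a member. It is shown because GGAC, in capitals, is the core around which m6A is placed, and because it shows what kinds of site the members cover. Each stretch is written 5′ to 3′ on the strand given, in mm10 coordinates.
Cfap74, chr4:155409102-155409125 (−): gggtaaagtgGGACgagcatcgcg
Ptbp1, chr10:79854450-79854473 (−): ctgttgggcgGGACggccgtcagt
LOC108167850, chr11:76213794-76213817 (−): ggaacacgtgGGACagcccattgt
Icam4, chr9:21029266-21029289 (−): gcacagttctGGACctgctcttta
Gm32131, chr9:48420602-48420625 (−): ctgtgacctgGGACgtgccattaa
Mir1896 hairpin, chr13:21445196-21445219 (+): gaacgaccauGGACucucugaugg

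The Cfap74 stretch lies in a WT member assigned to that gene, of 1106 exonic bases (chr4:155408359-155409464) at 9.8-fold, with no KO peak over it. The same site in the authors' deposited table had a log2 ratio of KO over WT of -1.79 at an FDR of 0.0115. The Ptbp1 stretch lies in members of both lists, of 1410 exonic bases in the KO list and 1560 in the WT list. The stretch named LOC108167850 lies in the WT member at Fam57a, one of the 10 of highest fold enrichment in that list. The Icam4 stretch lies in a KO member of 3.84-fold assigned to that gene, and the Gm32131 stretch lies in members at Nxpe1-ps in both lists. A match describes letters and not a methylated base: GGAC on either strand stood in 9 of 9 start windows of 300 bases wholly inside a member (100%, 66.4 to 100) and in 28798 of all 32851 RefSeq start windows (87.7%).

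A pair of KO members also covered whole microRNA hairpins. Their mature sequences are given with the seed, bases 2 to 8, in capitals, since a peak at such a site reports on the longer poly(A) transcript and the microRNAs themselves were not measured.
mmu-miR-671-5p, chr5:24592132-24592154 (+): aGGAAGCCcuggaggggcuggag
mmu-miR-671-3p, chr5:24592171-24592191 (+): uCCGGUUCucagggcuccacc
mmu-miR-1896, chr13:21445209-21445230 (+): cUCUCUGAuggugggugaggag

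No seed is shared among these 3. The peak over Mir671 was in exon 12 of 12 of a transcript and had 8.69-fold enrichment over 1498 exonic bases in the KO list (FDR 1e-235). The row over Mir671 in the authors' deposited table had a log2 ratio of -0.325 at an FDR of 3.89e-06. The peak over Mir1896, in exon 3 of 3, had 9.33-fold enrichment over 985 exonic bases in the KO list (FDR 1e-160). Among WT members, those with a RefSeq hairpin wholly inside lay at Mir6516, with an FDR above 0.05, and are not shown.

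Last-exon peaks were a small class in both lists, with a median enrichment in the middle of the annotation classes. They made up 5.38% of KO peaks (5.08 to 5.70) and 5.84% of WT peaks (5.48 to 6.20). Fold enrichment is the authors' own ratio of IP over input, read here only within a list. Where folds of both lists stand side by side, they are given as values and not compared. Its median over members was 3.84 (3.54 to 4.33) in the KO list, against 2.53 for internal exons and 3.15 for all KO peaks. In the WT list the median over members was 4.08 (3.83 to 4.59), against 2.85 for internal exons and 3.74 for all WT peaks. In both lists, then, the members' medians lay above those of internal exons with intervals that did not overlap. The 5′ UTR class stood close to the members, at 3.78 in KO and 4.12 in WT. First exons had higher medians, 4.72 in KO and 4.97 in WT, with intervals that overlapped the members', and single-exon transcripts had 5.90 in KO and 6.12 in WT.

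The members were mostly peaks that span no intron, and long peaks were fewer among them than in the whole lists. Their median exonic length, the summed length of a peak's blocks, was 329 bases (300 to 331) in the KO list and 331 bases (301 to 360) in the WT list. Internal exons had 300 bases in KO and 331 in WT, and all peaks 330 in KO and 391 in WT. Peaks of 1000 exonic bases or more were 11.2% of KO members against 16.4% of all KO peaks, and 13.3% of WT members against 23.2% of all WT peaks. The longest member of the KO list, 5458 bases, was at the long noncoding RNA Lockd. Peaks of a single block made up 92.7% of KO members and 91.1% of WT members. Among internal exons they made up 44.9% of KO peaks and 44.4% of WT peaks. At 3′ UTRs they were 72.4% in KO and 64.5% in WT, and at single-exon transcripts 99.0% in KO and 97.6% in WT.

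The share of members with strong support was below that of each list. An FDR under 0.05 was reached by 542 KO members (47.9%), against 64.9% of all KO peaks. In the WT list it was reached by 548 members (56.2%), against 70.2% of all WT peaks. Equal values were frequent: 68.9% of KO members and 66.4% of WT members shared both their fold and their p with another row of the same list, compared with 45.8% of all KO peaks and 39.8% of all WT peaks. Another row of the same list overlapped 14.3% of KO members and 15.2% of WT members, near the 12.5% of all KO peaks and 14.0% of all WT peaks. At first exons it was 29.7% in KO and 31.1% in WT. In every class, then, 1 site can be listed under more than 1 transcript.

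**Figure D1:**
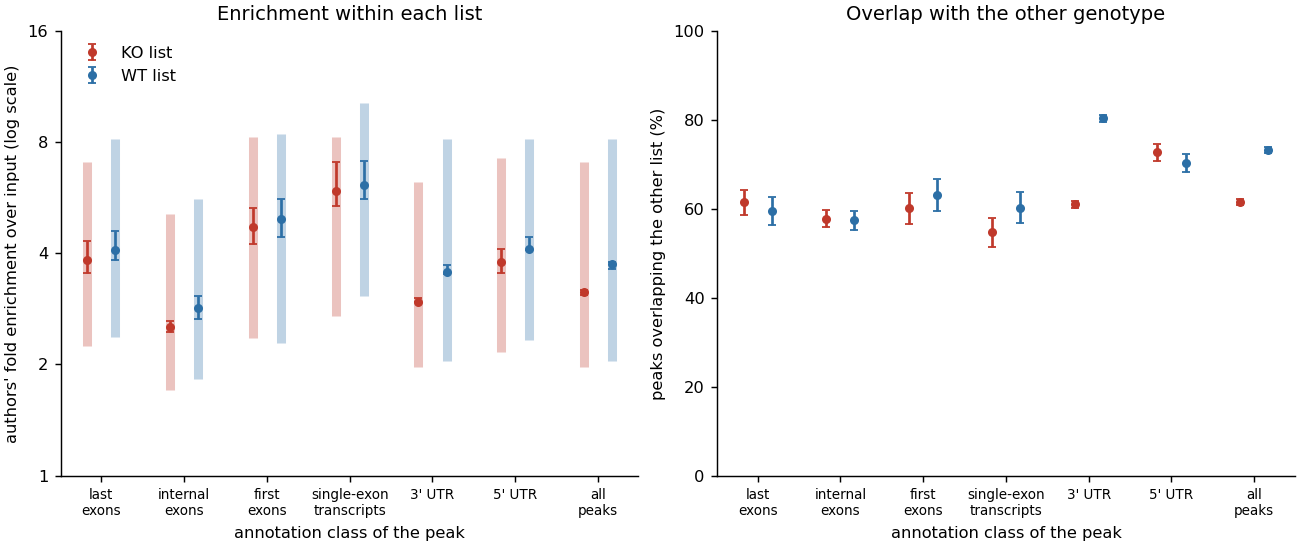
Left, fold enrichment (ratio of IP over input, log axis) by peak class, KO beside WT: dots are medians, thin lines 95% intervals and pale bars the middle 50% of peaks; right, share of peaks in % that overlap a peak of the other genotype's list, with 95% intervals. Last-exon peaks have medians of 3.84 in the KO list and 4.08 in the WT list, above internal exons at 2.53 in the KO list and 2.85 in the WT list, and 61.5% of KO members and 59.6% of WT members overlap the other list.

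Overlap with the other genotype's list, counted from 1 shared base, stood at the level of the whole list for KO members and below it for WT members. Of KO members, 696 (61.5%, 58.6 to 64.3) overlapped a WT peak by at least 1 exonic base, and the share over all KO peaks was 61.6%. Of WT members, 581 (59.6%, 56.4 to 62.7) overlapped a KO peak, and the share over all WT peaks was 73.4%. With 50% reciprocal overlap both were below their lists, at 29.6% of KO members against 41.5% of all KO peaks and 29.8% of WT members against 52.2% of all WT peaks. Internal exons of the WT list were also below that level, at 57.4%. The KO list was longer than the WT list, so a WT peak had more peaks to meet than a KO peak.

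Members with a partner in the other list were longer than those without one, at the same median fold. KO members with and without a WT partner both had a median fold of 3.84, with median exonic lengths of 390 and 239 bases. WT members with and without a KO partner both had a median fold of 4.08, with median exonic lengths of 449 and 241 bases. An FDR under 0.05 was reached by 63.8% of KO members with a partner and 22.5% of those without one, and by 72.5% of WT members with a partner and 32.2% of those without one. When members were placed in 4 equal classes of their own list's fold enrichment, lowest to highest, the overlap of KO members was 61.5, 64.2, 61.4 and 59.7%. Over all KO peaks it was 50.4, 60.5, 67.2 and 68.2%. WT members gave 58.8, 61.9, 51.7 and 66.9% from the lowest to the highest class, and all WT peaks gave 65.9, 70.5, 73.1 and 83.9%. Over all peaks the share was higher in each class of higher fold in both lists, and over members it was not.

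The partner was not always annotated to a last exon. Of the 696 KO members with a partner, 421 (60.5%) overlapped a WT last-exon peak, 131 a 3′ UTR peak and 59 an internal-exon peak. Of the 581 WT members with a partner, 412 (70.9%) overlapped a KO last-exon peak, 82 a 3′ UTR peak and 43 an internal-exon peak. By gene, 405 genes had a last-exon peak in both lists, which is 44.1% of the 918 KO genes and 52.4% of the 773 WT genes. The same share over genes with a peak of any class was not computed.

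The annotation refers to the last exon of 1 transcript, which was often not the end of the gene. Members could be placed on a RefSeq gene in 773 KO and 662 WT cases. Their median position was 73.1% of the gene's length in the KO list and 76.7% in the WT list, where 100% is the 3′ end. Internal-exon peaks had median positions of 63.2% in the KO list and 61.8% in the WT list. The final 10% of the gene held 24.8% of placed KO members and 26.6% of placed WT members, yet 26.8% of KO members and 26.1% of WT members lay before the midpoint. The median distance to the gene's end was 3.26 kb in each list, against 13.4 kb for internal exons of the KO list and 14.0 kb for those of the WT list. Within 1 kb of the end lay 17.5% of KO members and 16.9% of WT members, compared with 47.4% of KO and 37.9% of WT 3′ UTR peaks.

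**Figure D2:**
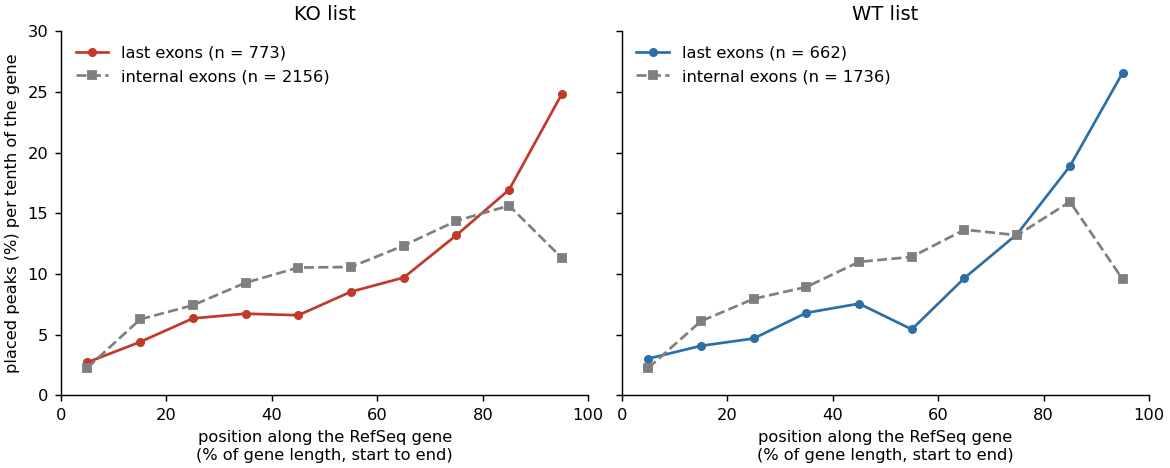
Share of placed peaks in % by position along the RefSeq gene, in steps of 10% from the 5′ end (0) to the 3′ end (100), for last-exon and internal-exon peaks, with KO left and WT right. Last-exon peaks are most frequent in the final 10%, with 24.8% of KO members and 26.6% of WT members, where internal-exon peaks have 11.3% in the KO list and 9.56% in the WT list.

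Most members belonged to transcripts of few exons. Transcripts of 2 exons held 370 KO members (32.7%) and 331 WT members (33.9%), and those of 6 or more exons held 261 KO members (23.1%) and 228 WT members (23.4%). In 137 KO members and 125 WT members the transcript had fewer exons than the largest number annotated for the same gene anywhere in the files. These sat at a median of 55.3% of the gene in the KO list and 47.0% in the WT list, against 76.3% for the other KO members and 79.9% for the other WT members. They overlapped the other genotype's list in 48.2% of KO and 46.4% of WT cases, whereas the other members did so in 63.3% of KO and 61.5% of WT cases.

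Noncoding transcripts were frequent among the members. Of 942 KO members whose exon gene had a RefSeq type, 221 (23.5%) were long noncoding RNAs and 695 (73.8%) protein-coding genes. Of 811 such WT members, 192 (23.7%) were long noncoding RNAs and 593 (73.1%) protein-coding genes. Among internal-exon peaks long noncoding RNAs made up 2.30% in the KO list and 3.20% in the WT list. The trait was not particular to last exons. First exons had a higher share than the members, 33.0% in the KO list and 35.7% in the WT list. Single-exon transcripts lay between internal exons and the members in both lists. Members at long noncoding RNAs had a median fold of 5.90 in the KO list, where those at protein-coding genes had 3.54. In the WT list the medians were 6.20 at long noncoding RNAs and 3.74 at protein-coding genes. Internal exons had the same order, 8.27 against 2.47 in the KO list and 7.14 against 2.72 in the WT list. The gene to which the authors assigned a peak was the exon's own gene in 76.9% of KO members and 77.9% of WT members. Genes below are named by the exon, and the assigned gene is given where it differs. The strand of a peak is not given, so overlapping and antisense genes at a site cannot be told apart.

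Several members often lay in 1 long last exon. In the KO list 766 genes had 1 member, 115 had 2 and 37 had 3 or more, these last holding 136 peaks. In the WT list 643 genes had 1 member, 92 had 2 and 38 had 3 or more, with 148 peaks.

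Ahnak, which encodes a very large scaffold protein, had exon 5 of 5 covered by 10 KO peaks and 12 WT peaks. Along the exon the KO peaks had folds of 1.33, 1.42, 1.26, 1.59, 1.18, 1.92, 1.15, 3.47, 1.19 and 2.9. The WT peaks had folds of 1.12, 1.29, 1.19, 1.82, 1.17, 1.17, 1.53, 1.19, 2.09, 4.69, 1.11 and 3.81. In both lists the strongest peak was the one at 24.1 kb into the gene (chr19:9013400-9015109 in KO, chr19:9013340-9015169 in WT), and a neighbouring peak near the exon's end was the next strongest. The authors' deposited table gave 4 rows for this exon, with log2 ratios of -0.335, -0.437, -0.302 and -0.22, each with an FDR under 0.05. Outside the exon the authors' deposited table gave Ahnak -0.375 for the 5′ UTR row and 0.203 for the 3′ UTR row.

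Zfp469, a zinc finger gene whose human counterpart is mutated in brittle cornea syndrome, had 9 KO peaks and 13 WT peaks in exon 2 of 2. The KO peaks had folds from 2.6 to 21.3 and the WT peaks from 2.3 to 19.4, and no row of the authors' deposited table lay in this gene. An FDR under 0.05 was reached by 7 of the 9 KO peaks and 8 of the 13 WT peaks.

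**Figure D3:**
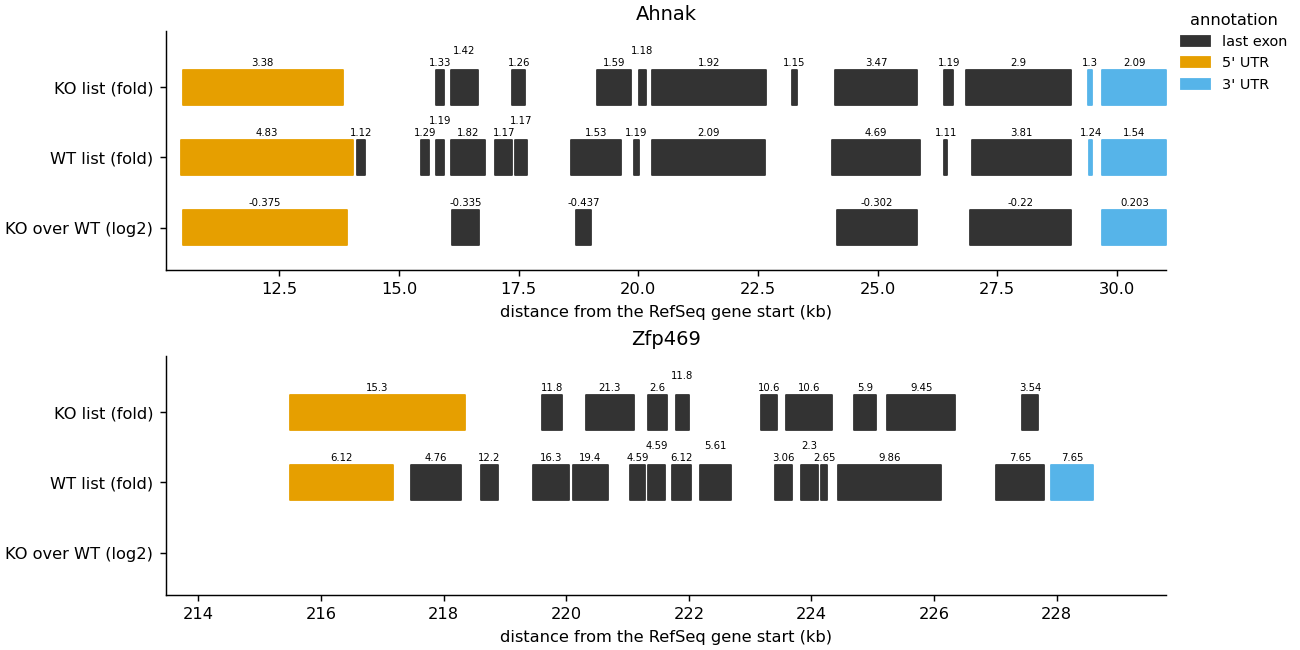
Peaks of Ahnak and Zfp469 drawn along the last exon and its surroundings in kb from the gene's start, with KO above WT above the differential table: bars are the genomic span of each peak, last-exon peaks and other classes in different colours, and numbers are the authors' fold enrichment or, in the bottom row, the authors' log2 ratio of KO over WT. Ahnak has 10 KO and 12 WT last-exon peaks, and Zfp469 has 9 KO and 13 WT ones and no differential row.

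Other genes with many members included noncoding and predicted genes. Xist, the RNA that silences one X chromosome, had 3 KO peaks and 7 WT peaks in exon 7 of 7. The KO peaks had folds of 5.78, 11.1 and 31.9, and 4 of the 7 WT peaks had folds of 1.14 to 1.19. The remaining WT peaks of Xist had folds of 6.28, 13.4 and 54.1, where the 3 KO peaks lay. These are not all separate sites: listing overlapping rows once left 1 of the 3 KO and 4 of the 7 WT peaks. The authors' deposited table gave Xist log2 ratios of -0.264 and -0.187, in rows whose spans overlap. Tug1, a long noncoding RNA, had 5 KO peaks of 1.77- to 5.21-fold and 6 WT peaks of 1.53- to 3.95-fold in exon 2 of 2. With overlapping rows listed once, 3 KO and 4 WT peaks of Tug1 were left. Smim8, a gene for a small membrane protein, had 5 KO peaks of 1.72- to 2.61-fold and 4 WT peaks of 2.21- to 3.29-fold. The gene 1500004A13Rik had 5 KO peaks of 2.7- to 11.8-fold and 3 WT peaks of 3.32- to 6.6-fold, of which 4 KO and 1 WT were left when overlapping rows were listed once. The predicted gene Gm10419 had 4 KO peaks of 2.83- to 9.45-fold and 4 WT peaks of 1.87- to 5.44-fold.

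Some long exons of this class in macrophage genes were divided differently in the lists. Lyst, the lysosomal trafficking regulator mutated in beige mice, had 2 KO peaks of 721 and 511 bases at 2.44- and 2.96-fold, and 1 WT peak of 2641 bases at 5.77-fold over the same stretch of chromosome 13. The exon was exon 5 of 5 of a short transcript of a gene with up to 53 exons in the annotation, and the KO peaks lay 144 and 143 kb from the gene's end. Log2 ratios there were -0.354 and -0.653 in the authors' deposited table. Icam1, a ligand of leukocyte integrins, had 3 KO peaks of 1.49-, 16.5- and 3.15-fold, and 1 WT peak of 1494 bases at 20.4-fold, in exon 2 of 2 of a short transcript of a gene with up to 7 exons. Samd9l, an interferon-inducible antiviral factor, had 1 KO peak of 2669 bases at 3.89-fold, and 3 WT peaks at 6.98-, 1.93- and 1.62-fold. The authors' deposited table gave Samd9l a log2 ratio of -0.376 at an FDR of 2.57e-07. Counts of peaks per gene thus depend on where each list breaks a stretch.

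The authors' deposited table was used for the difference between the genotypes at last exons. For each row it gives enrichment in KO over WT as a log2 ratio, below 0 where KO was lower, and lists only rows with a p of at most 0.0490, so sites tested and not listed are unknown. Of the 219 last-exon rows of the authors' deposited table, 175 were lower in KO (79.9%, 74.0 to 85.0) and 44 (20.1%) were higher. Over all rows of the authors' deposited table, 69.6% were lower and 30.4% higher, with 91.1% lower over internal exons and 63.2% over 3′ UTRs. The median log2 ratio in the authors' deposited table was -0.55 (-0.707 to -0.461) over last-exon rows, -0.57 over internal exons and -0.402 over all rows. Measured from the table's own median rather than from 0, 137 last-exon rows of the authors' deposited table (62.6%) lay below it, where the share over all rows was 50%. Large shifts were more frequent than over all rows: 70 last-exon rows of the authors' deposited table (32.0%, 25.8 to 38.6) were at least 1 in absolute log2 ratio, against 16.3%. The trait was not particular to last exons, with 43.3% at single-exon transcripts, 26.0% (18.6 to 34.5) at first exons and 19.1% at internal exons. An FDR under 0.05 was given to 163 last-exon rows in the authors' deposited table (74.4%), against 79.6% of all rows. Those 163 were 132 rows lower in KO, 60.3% of the last-exon rows of the authors' deposited table against 57% of all its rows, and 31 rows higher in KO, 14.2% against 22.6%.

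Lower last-exon rows had a median log2 ratio of -0.737 and higher ones of 0.80 in the authors' deposited table. All 219 rows overlapped a peak of a list, 192 a KO peak and 205 a WT peak. A last-exon peak was met in the KO list by 142 rows and in the WT list by 117, and 49 rows met neither. Read the other way, 203 KO members (17.9%) overlapped a row of the authors' deposited table, against 29.3% of all KO peaks. Among WT members 127 (13.0%) did so, against 32.2% of all WT peaks.

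The direction differed with length. Among last-exon rows of under 200 exonic bases in the authors' deposited table, 20 of 43 (46.5%) were lower in KO, and of 200 to under 400 bases 56 of 70 (80%) were. Of last-exon rows of 400 to under 800 bases 44 of 48 (91.7%), and of 800 or more 55 of 58 (94.8%), were lower in the authors' deposited table. Over all rows of the authors' deposited table the shares in the same 4 classes, short to long, were 21.7, 49.2, 88.5 and 98.5%. Last-exon rows thus stood furthest above all rows in the classes under 400 bases, and below them in the longest class.

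The share of lower rows also differed with input level and with support. By mean input level in 5 equal classes of the authors' deposited table, lowest first, 83.5, 87.2, 85.7, 86.4 and 63.9% of last-exon rows with a level were lower, against 71.7, 84.3, 77.8, 70.5 and 44.3% of all rows. By peak p in 5 equal classes of the authors' deposited table, strongest first, 14 of 14, 27 of 27, 42 of 49, 49 of 64 and 43 of 65 last-exon rows were lower, against 96.4, 87.5, 70.3, 52.2 and 41.6% of all rows. Last-exon rows of the strongest 2 classes were thus all lower in KO, in classes where most rows of the whole table were lower too. The median level of genes with a last-exon row was 2.48 FPKM in KO input and 2.41 FPKM in WT input in the authors' deposited table, against 6.30 FPKM in KO and 5.88 FPKM in WT over all its genes. Whether length, level or support accounts for the shares was not tested.

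**Figure D4:**
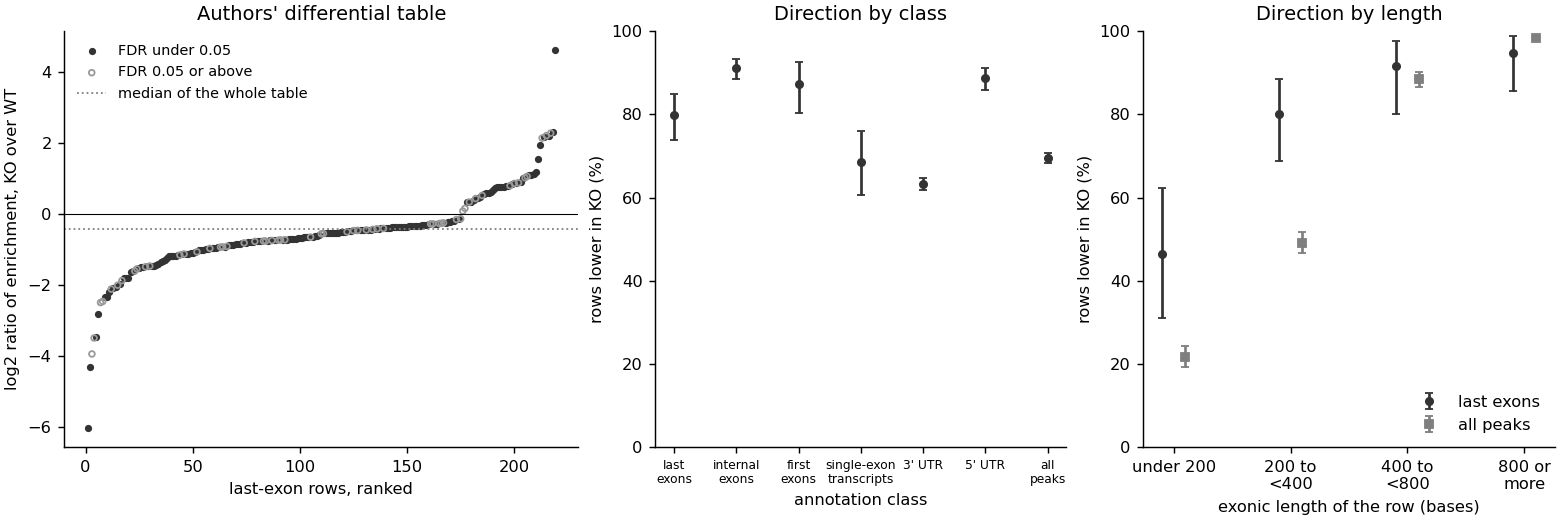
Left, log2 ratio of KO over WT from the authors' deposited table for the 219 last-exon rows in rank order, filled where the FDR is under 0.05, with the table's median of -0.402 dotted; middle, share of rows lower in KO in % by peak class; right, the same share by exonic length for last exons and for all rows, with 95% intervals. At last exons 79.9% of rows are lower, and by length the share goes through 46.5, 80, 91.7 and 94.8%.

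Within a gene, last-exon rows and rows of other classes could go different ways. Both kinds were listed for 50 genes in the authors' deposited table, with gene medians of -0.544 for last exons and -0.502 for the other classes. Both were lower in 32 of these genes and both higher in 4 in the authors' deposited table, while in 9 only the last exon and in 5 only the other class was lower. Examples, chosen after their values were seen, follow. Qsox1, a secreted sulfhydryl oxidase, had -1.17 at the last exon and 1.29 elsewhere in the authors' deposited table. Gmfg, an actin-branch regulator of leukocytes, had -1.35 at the last exon and 1.07 elsewhere in the authors' deposited table. Hnrnpl, a splicing regulator, had -0.801 at the last exon and 0.693 elsewhere in the authors' deposited table. In Cflar, Adnp2, Slc27a1 and Fastkd5 the last-exon value was the higher one.

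By the number of exons of the transcript, 44 of 64 last-exon rows at 2-exon transcripts were lower in the authors' deposited table (68.8%), as were 38 of 43 at 3-exon transcripts (88.4%) and 50 of 60 at transcripts of 6 or more (83.3%). Protein-coding genes had 113 of 136 rows lower in the authors' deposited table (83.1%) and long noncoding RNAs 24 of 32. Of the 195 genes with a last-exon row, 19 had more than 1. In 4 of these (Brip1os, Gm16201, Gm37494 and Gm42031) the rows of the authors' deposited table went both ways. The rows under the name Gm37494 lie in exons of different genes, with RefSeq placing Zfp619 at the higher row.

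Zinc finger genes, whose finger arrays are commonly encoded in 1 long last exon, were the largest of 10 gene lists. They gave 128 KO members in 93 genes, 11.3% of KO members against 3.84% of all KO peaks. In the WT list they gave 129 members in 82 genes, 13.2% of WT members against 4.32% of all WT peaks. A median of 3.75 in the KO list and 3.44 in the WT list put their fold close to that of the members as a whole. Zinc finger members had a median position of 79.2% of the gene in the KO list and 83.5% in the WT list, where other protein-coding members had 69.3% in KO and 72.9% in WT. Of KO zinc finger members 73.4% (64.9 to 80.9) overlapped a WT peak, against 55.8% (51.6 to 59.9) of other protein-coding members. Of WT zinc finger members 63.6% (54.6 to 71.9) overlapped a KO peak, against 56.5% (51.9 to 61.1) of other protein-coding members.

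The authors' deposited table held 24 last-exon rows matched by symbol to 23 zinc finger genes, and 23 of the 24 were lower in KO. Their median log2 ratio in the authors' deposited table was -0.76 (-1.06 to -0.663), beside -0.717 over all 222 zinc finger rows, of which 204 were lower. An FDR under 0.05 was given to 16 of the 24 in the authors' deposited table, 15 of them lower. The exception among the 24 was the row assigned to Zbtb11, with a log2 ratio of 0.495 over 117 exonic bases in the authors' deposited table. Its exon belongs to a gene without a name, where RefSeq places Zbtb11. Rows under other names were not matched. Among them, the row assigned to Gm37494 where RefSeq places Zfp619 had 1.18 at an FDR of 0.0209 in the authors' deposited table. The row assigned to Nat14 where RefSeq places Zfp628 and Nat14 had -0.93. Zfp839, whose row is assigned to Mpc1-ps, had -1.28, Zkscan17 had -0.989, Zfp646 had -0.506 and Zbtb1, a regulator of lymphoid development, had -0.319 in the authors' deposited table, each with an FDR under 0.05. In the lists the Zbtb1 peak was 5.86-fold over 1559 bases in KO and 7.18-fold over 1709 bases in WT. The Zfp729a peak was 7.71-fold over 990 bases in KO and 7.45-fold over 720 bases in WT. Many of these genes are close paralogs of one another, such as Zfp729a and Zfp729b, and reads could be split between them in ways the files do not show.

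Toll-like receptors commonly encode most of the receptor in 1 exon. Their list, which also holds Cd14, Ly86 and Cd180, gave 5 members in 2 genes among 21 KO peaks, and 1 among 16 WT peaks. Tlr13, which senses bacterial ribosomal RNA, had 3 KO peaks in exon 3 of 3, of 1.2-, 1.78- and 1.12-fold. WT had 1 peak of 1615 bases at 2.41-fold over the same exon. In the authors' deposited table Tlr13 had log2 ratios between -0.41 and -0.328 in 3 rows. Tlr7, which senses single-stranded RNA, had a KO peak of 1133 bases at 2.11-fold in exon 5 of 5, and in the authors' deposited table a log2 ratio of -0.178 at an FDR of 0.000251. All 4 rows of the list were lower in the authors' deposited table, as were all 16 Toll-like receptor rows of any class. Ticam1, the adaptor of Tlr3 and Tlr4, was not on the list but had last-exon rows of -0.461 and -0.834 in the authors' deposited table.

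The remaining lists had few or no members by count, although all were short lists. G protein-coupled receptors had 7 KO members, 12 WT members and no last-exon row among 30 rows in the authors' deposited table. The members were 5.65% of the KO peaks and 11.4% of the WT peaks of these receptors, beside 5.38% of all KO peaks and 5.84% of all WT peaks. Of these receptors Gpr84, a receptor of medium-chain fatty acids, had a WT peak of 4.08-fold, P2ry13, a receptor of nucleotides, had a WT peak of 7.14-fold, and Gpr162 had peaks of 1.43-fold in KO and 1.45-fold in WT. Interferon-induced GTPases, which act against intracellular microbes, had 3 members among 24 KO peaks and 1 among 14 WT peaks. Iigp1 was 20.7-fold and Irgm2 2.64-fold in KO, and Tgtp2, which has a near-identical neighbour, was 2.22-fold in KO and 4.08-fold in WT. Ifi47 had a log2 ratio of -0.322 in the authors' deposited table. The list of chromatin regulators had 115 KO peaks and 98 WT peaks. Within it only the remodeller Chd7 had members, 2.62-fold in KO (FDR 0.0676) and 4.08-fold in WT (FDR 0.00162), at sites that did not overlap. This short list leaves out other chromatin genes with members, such as Ankrd11. The list of long noncoding RNAs had 7 KO members, in Tug1, Dleu2 and Gas5, and 9 WT members. These were 21.2% of its KO peaks and 34.6% of its WT peaks, above the shares of all peaks. Of all peaks, 64.1% in KO and 59.6% in WT were 3′ UTR peaks. Tug1 alone gave 5 of the 7 KO members and 6 of the 9 WT members, some of them overlapping. Its last-exon row, for Snhg1, had 1.55 in the authors' deposited table. Negative regulators of inflammatory signalling had Irak3, a brake on Toll-like receptor signalling, at 2.36-fold in KO, and Zc3h12a, an RNase that degrades cytokine mRNAs, at 1.48-fold in WT, both with an FDR above 0.05. SOCS genes, early response factors, and the writers, erasers and readers of m6A had no member in either list. They had 10, 29 and 41 peaks of other classes in the KO list and 13, 22 and 29 in the WT list. The intervals of these shares of 0% reach 30.8, 11.9 and 8.60% in the KO list and 24.7, 15.4 and 11.9% in the WT list. They thus include the shares of all peaks.

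Among KO members with an FDR under 0.05 whose exon gene and assigned gene both lacked a predicted name, Cflar had the highest fold. The Xist peak of equal fold was left out here because the authors assigned it to the predicted gene Gm27733. Cflar encodes c-FLIP, the inhibitor of caspase-8 at death receptors, and its peak (chr1:58722737-58723066, 330 bases) had 31.9-fold enrichment and no WT peak over it. The exon was exon 2 of 2 of a short transcript of a gene with up to 10 exons in the annotation, 36.0 kb from the gene's end. Ppp1r3f, a glycogen-targeting subunit of protein phosphatase 1, had 28.3-fold in KO and 8.16-fold at the overlapping WT peak. Orc3, a subunit of the origin recognition complex, had 22.4-fold in KO and 6.94-fold in WT. Adora2a, an adenosine receptor that restrains macrophage activation, had 22.4-fold over 804 bases of exon 3 of 3. The others were the antisense RNAs Hoxb3os (27.2-fold) and Arhgap27os3 (23.6-fold), Ankrd11, a chromatin cofactor (23.6-fold), Gmfg (21.3-fold, assigned to Lrfn1), the site assigned to the splicing repressor Ptbp1 (21.3-fold) and Zfp469 (21.3-fold). All but Cflar overlapped a WT peak.

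Among the WT members of high fold was Gmfg, with 48-fold over 1139 bases (chr7:28447095-28448233). In KO the Gmfg exon had 2 peaks, of 13-fold over 750 bases and 21.3-fold over 510 bases. The authors' deposited table gave Gmfg a log2 ratio of -1.35 at an FDR of 0.0363. Cul4a, the scaffold of a ubiquitin ligase, had 25.5-fold over 899 bases in WT, and in KO 2 peaks of 10.6- and 15.3-fold at the same place, exon 3 of 3 and 31.2 kb from the gene's end. Others were Lrrc70 (29.6-fold), Fam57a (28.4-fold, assigned to Dbil5), the platelet glycoprotein gene Gp5 (24.5-fold), Tmem259 (24.5-fold), Cdadc1 (22.4-fold), Tmco3 (22.4-fold) and the ciliary gene Cfap74 (21.4-fold). At the Fam57a member RefSeq places Gemin4 and LOC108167850 and not Fam57a, and at the Tmem259 member Grin3b and not Tmem259. Of these WT members, all but Cdadc1 and Cfap74 overlapped a KO peak.

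The lowest log2 ratios in the authors' deposited table, among named genes whose 2 input levels both reached 1 FPKM, were those of Cul4a (-2.11), Swsap1, a homologous recombination factor (-2.00), and Ttbk2 (-1.98). Of these 3 only Ttbk2, a kinase needed for cilia, had an FDR under 0.05 in the authors' deposited table (0.0195), and its row is assigned to Cdan1. Cdk12, a kinase of RNA polymerase II, had -1.61 over 391 bases of exon 14 of 14 at an FDR of 1.82e-05 in the authors' deposited table. The site assigned to Spsb4, an adaptor of ubiquitin ligases, had -1.64 at an FDR of 6.61e-05 in the authors' deposited table, in an exon of a gene without a name in the files. Rad54l2, a helicase-like chromatin protein, had -1.41 at an FDR of 0.00363, and Taf7, a subunit of the general factor TFIID, had -1.50 at an FDR of 0.00933 in the authors' deposited table. Zfp993 (-1.80) and Aldh1b1, a mitochondrial aldehyde dehydrogenase (-1.51), were just under an FDR of 0.05 in the authors' deposited table, and Frmd6, a FERM domain protein (-1.54), was above it.

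The highest was Cflar, with a log2 ratio of 4.63 over 150 bases (chr1:58722857-58723006) at an FDR of 0.00126 in the authors' deposited table. Its other row, in another class, had -0.68, and its input level was 8.65 FPKM in KO and 8.41 FPKM in WT in the authors' deposited table. Rps24, a protein of the small ribosomal subunit, had 0.768 at an FDR of 7.94e-39 in the authors' deposited table, with input levels of 74.3 FPKM in KO and 74.1 FPKM in WT. Mettl23, a methyltransferase-like protein, had 0.777 at an FDR of 0.000339 in the authors' deposited table, at a site where RefSeq places Srsf2 and not Mettl23. The site assigned to Ppp1r10, a nuclear phosphatase 1 anchor, had 0.908 at an FDR of 0.00182 in the authors' deposited table. Gpatch8 (0.887, assigned to Itga2b) and the homeobox gene Adnp2 (0.801) also had an FDR under 0.05 in the authors' deposited table. Cass4 (2.29, assigned to Rtf2), the fatty acid transporter Slc27a1 (1.03, assigned to Pgls), the Mediator subunit Med1 (0.888) and the mitochondrial RNA factor Fastkd5 (0.87) did not in the authors' deposited table. Among these 10 only the rows of Cass4 (721 bases) and Adnp2 (628 bases) were longer than 400 bases.

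**Figure D5:**
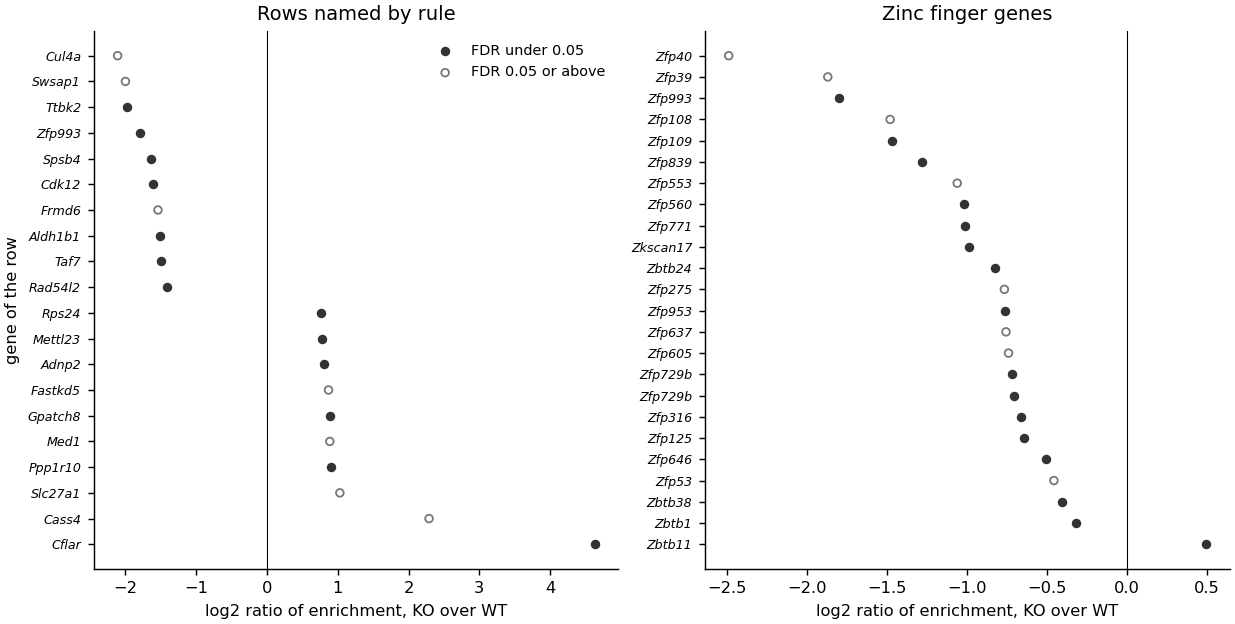
Log2 ratio of KO over WT from the authors' deposited table, left for the 10 lowest and 10 highest last-exon rows of named genes at 1 FPKM or more in both inputs, right for the 24 last-exon rows of zinc finger genes, filled where the FDR is under 0.05. Cul4a stands lowest at -2.11 and Cflar highest at 4.63 on the left. Zbtb11 at 0.495 is the 1 row above 0 among the 24 on the right, which were matched by symbol.

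Rows outside that rule reached further in the authors' deposited table, in predicted genes or genes of low level. Gm10778 had -6.04 and Gm16287 -4.32 in the authors' deposited table, at input levels under 0.5 FPKM in both genotypes. C1ra, a complement protease whose row is assigned to Gm16567, had -3.46 at an FDR of 0.0112 in the authors' deposited table. Gm15501 had 4 rows from 1.12 to 2.33 in the authors' deposited table, some of which overlap one another. The site shared by Gclm, a subunit of the enzyme that starts glutathione synthesis, and the predicted gene Gm6061 had -2.33 and -2.18 in the authors' deposited table, while the input level listed for Gm6061 was 61.4 FPKM in KO and 17.2 FPKM in WT.

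Input levels of genes to which the authors assigned a last-exon row differed little in the median. In 71 of the 219 last-exon rows the assigned gene was not the gene of the exon. In 120 of the 195 genes the mean level was 1 FPKM or more in the authors' deposited table, and over these the median difference of log2(FPKM + 1), KO minus WT, was 0.086 (0.058 to 0.123). It was above 0 in 87 genes (72.5%), against 69% of all genes listed and a median of 0.0717 over all of them. The authors' adjusted p for the input difference was 1 for all 120 genes in the authors' deposited table, and 2 had an unadjusted p under 0.05. Over the 120 genes the differences ran from -1.45 to 1.78. At a mean level of at least 5 FPKM the largest increases in the authors' deposited table were those of Gm6061 (1.78), Rnase4, a secreted ribonuclease (0.63, 18.5 FPKM in KO and 11.6 in WT), Ifi47 (0.58), Mlycd, which breaks down malonyl-CoA (0.50), and Nxpe1-ps (0.42). At the same level the largest decreases in the authors' deposited table were those of Gm15501 (-0.68), Ahnak2 (-0.44), Lat2, a signalling adaptor of immune cells (-0.30), Mpc1-ps (-0.30) and Ticam1 (-0.17). The row assigned to Mpc1-ps lies in an exon of Zfp839, and RefSeq places Eif4h and not Lat2 at the row assigned to Lat2.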

How the data were processed

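Groups were taken from the sample titles, with 1 library for each genotype and assay. The build was mm10, per the submitters' processing notes, which also list edgeR, StringTie, ChIPseeker, HOMER, HISAT2 and fastp with no role for any. The tool that called peaks was not given in the sources used here. For each genotype the authors deposited a peak list with a ratio (fold) of IP to input and the log10 of a p-value and of its false discovery rate, per the file headers. The score column deposited beside them holds that p-value itself, as its values show. Both lists end at a p-value of 0.05. The authors' deposited differential table gives, per the file headers, a log2 ratio of KO over WT, p-values and the input FPKM of the assigned gene. Nothing was pooled.

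Members were found by the annotation text. Peaks were intersected by their exonic blocks in bedtools 2.31.1 (minimum 1 base, strand ignored), in Python 3.11.15 with pandas 2.3.3, numpy 2.4.6, matplotlib 3.10.9 and scipy 1.17.1. Shares have exact (Clopper-Pearson) intervals at 95% and medians order-statistic intervals. Parsing, overlap and intervals were tested on simulated data and recovered what was put in. Positions and types came from RefSeq (GRCm38.p6), matched by symbol on the same chromosome. A start window runs from 250 bases before to 50 after a gene's start. Input differences used log2(FPKM + 1) where the mean reached 1 FPKM, and on this scale differences of low genes come out too small.

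With 1 library per group no test was run, and all p-values and false discovery rates are the authors' deposited ones. The members and gene lists were chosen with earlier results of these data known. The 10 lists were matched by symbol. Named genes were the 10 members of highest fold in each list with a false discovery rate under 0.05, where neither the exon's nor the assigned gene has a predicted name, the 10 lowest and 10 highest log2 ratios with at least 1 FPKM in both inputs, 1 per gene and without predicted names, the 5 genes with most members in each list, up to 5 members per gene list by peak p, and the 5 largest input increases and decreases at a mean of at least 5 FPKM. Lyst, Icam1, Samd9l, Ticam1, the genes with rows of several classes, those outside the level filter and those of the printed sequences were chosen after their values were seen. Motifs within peaks, coding sequence and stop codons were not analysed here, and some genes that meet these rules are not reported here.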

Additional observations from a re-analysis of the deposited data

How the results depend on the processing

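Each of 11 values was recomputed under other settings, 80 alternatives in all, of which 43 left the value within its interval and 37 moved it outside. Only the log2 values could change sign, since shares, folds and lengths cannot be negative, and of the log2 values 0 did. The filters on fold and on absolute log2 ratio act on the value itself, so the medians of those values move by rule. The share of peaks in last exons was 6.48% in KO and 6.37% in WT among peaks of at least 4-fold, 2.24% in KO and 1.95% in WT at a p of at most 1e-10, and 3.97% in KO and 4.67% in WT at an FDR under 0.05. It was 4.30% in KO and 4.52% in WT without predicted genes, 4.14% in KO and 4.55% in WT where the exon's gene was the assigned one, and 3.62% in KO and 3.85% in WT for transcripts of at least 3 exons. The median fold was 7.29 in KO and 7.82 in WT at 4-fold or more and 4.99 in KO and 6.26 in WT at the stricter p. In WT alone it also moved, to 5.10 at an FDR under 0.05, 3.70 without predicted genes and 3.74 for at least 3 exons. The median exonic length was 480 bases in KO and 539 in WT at 4-fold or more, 930 in KO and 1000 in WT at the stricter p, 418.5 in KO and 479.5 in WT at an FDR under 0.05, and 297.5 in KO and 300 in WT without predicted genes. Overlap with the other list was 97.4% in KO and 96.0% in WT at the stricter p, and 81.9% in KO and 76.8% in WT at an FDR under 0.05. Overlap of all peaks was not computed under these filters, so where members stand against their lists is unknown there. With 50% reciprocal overlap members had 29.6% in KO and 29.8% in WT, where all peaks had 41.5% in KO and 52.2% in WT. KO members thus no longer stood at the level of their list. In the authors' deposited table the median log2 ratio was -1.34 among rows of at least 1 in absolute value and -0.148 after centring on the table's median, and the share lower was 62.6% after centring. With a pseudocount of 0.1 the median input difference was 0.123. The filters leave fewer peaks, and the cause of these moves was not tested beyond that. Listing each site once, and leaving out transcripts with fewer exons than the gene's largest number, were chosen after seeing the data. The first, not run for the input difference, left the other values within their intervals. The second was run only on the authors' deposited table, and gave 80.7% lower rows and a median of -0.582. No paired analysis was possible because each genotype had 1 IP and 1 input library. Unknown depth, differential rows listed only at a p under 0.05, and the many members that share equal values limit all of these.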
